A study of Rattus norvegicus with 6 samples.

Results

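The early response genes described here are Egr1, Egr2, Egr3, Nab1, Nab2, Nr4a1, Nr4a2, Ier2, Ier3 and Ier5, measured in liver RNA from 6 rats, outbred Sprague-Dawley males, on 1-colour whole-genome arrays. These 10 genes, of 15284 with a probe named through RefSeq, were chosen by name and on their TCEP against corn oil differences in the same 6 arrays, so their group differences are given as a description and carry no test. The TCEP group held 3 rats dosed with tris(2-chloroethyl) phosphate (a flame retardant of the chlorinated organophosphate class) at a daily 400 mg per kg, and the corn oil group held 3 rats given the vehicle alone. All rats were 5 weeks old when bought and ate a basal diet, and the labels disagree on the dosing time, with 9 weeks in the treatment protocol and 28 days in the design text. Each rat gave 1 array.

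Early response genes are transcribed soon after a growth factor, cytokine or stress signal reaches a cell, without waiting for newly made protein, and their transcripts are short-lived. Serum response factor with its ternary complex partners, and CREB, carry the MAP kinase and cAMP signals to many of their promoters. The EGR proteins are zinc finger transcription factors, the NAB proteins bind EGR factors and repress their activity, the NR4A proteins are orphan nuclear receptors, and the IER proteins are small intracellular regulators of signalling and survival. In rodent liver these genes are best known for their rapid induction after partial hepatectomy and for NR4A action on glucose production in mice.

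The 10 genes had 18 probes, and every member had at least 1. Signals are log2 values relative to the 75th percentile of the array, so a value of 0 equals that percentile, and levels are compared between arrays for 1 probe but not between probes. Of the 18 probes, 13 passed the filter on dim signal, which kept a probe when all 3 arrays of either group read it well above background; they covered 9 genes. The Egr2 probe did not pass. A gene is represented by its brightest kept probe. Between 57.2% and 64.4% of the 61657 non-control probes of an array were well above background. The 3 TCEP arrays shared slide 3, and corn oil replicates 1 and 3 shared slide 1. Corn oil replicate 2 was on slide 2 and was scanned 23 days after the other arrays, so the values within the first scan day are those without that array. Slide 3 held only TCEP, so the effect of that slide and of TCEP cannot be told apart.

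Most early genes had a lower mean signal in the TCEP livers. Of the 9 represented genes, 7 had a lower mean with TCEP. The median log2 difference, TCEP minus corn oil, was -0.42, against 0.01 over all 37043 kept probes. It was -0.25 without corn oil replicate 3. Egr3, 1 of the 9 and higher with TCEP, passed the filter only through the TCEP arrays. With the filter on all 6 arrays Egr3 dropped out, 7 genes were lower and the median was -0.44. The corepressor genes Nab1 and Nab2 and the early gene Ier2 had all 3 TCEP values below all 3 corn oil values, a pattern found in 6.89% of all kept probes, and the opposite pattern, found in 10.1%, was met by 0 of the 9 genes. Over all probes 0 passed an adjusted p of 0.05 in limma (0% called, smallest adjusted p = 0.299), members included. At an unadjusted p under 0.05 limma gave 4.10% of all kept probes as lower with TCEP and 4.84% as higher. The mean was lower with TCEP in 48.9% of all kept probes, in 37.5% with centring on the median and in 60.1% of all 61657 probes with no filter. In whole liver, fewer cells of a type and less RNA per cell cannot be told apart.

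**Figure D1:**
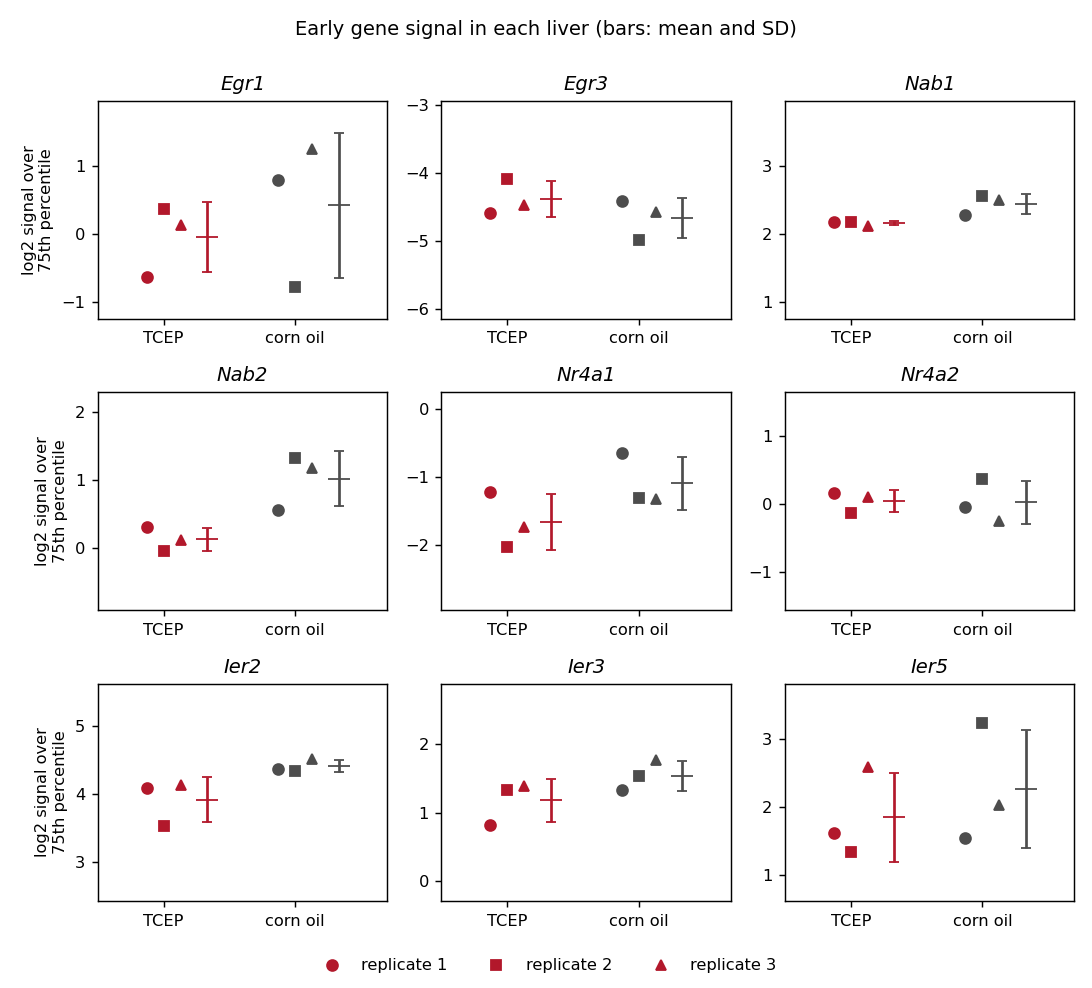
Log2 signal relative to the 75th percentile of the array (vertical axis, the same span in every panel) for the brightest kept probe of 9 early genes, with TCEP livers in red and corn oil livers in grey. Points are single livers, their shapes are replicate numbers, and bars give the mean and SD of 3 livers. The groups are apart for Nab1, Nab2 and Ier2. Egr1 and Ier5 vary most between arrays of 1 group, with corn oil replicate 2, of another slide and scan day, included.

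Among the EGR factors, Egr1, the zinc finger factor that responds to growth and stress signals in most tissues, had log2 signals of -0.62, 0.37 and 0.14 in TCEP livers, against 0.80, -0.77 and 1.26 in corn oil livers. The lowest and the highest of the 6 values both belonged to corn oil livers, so the groups overlapped. The means were -0.04 ± 0.51 with TCEP and 0.43 ± 1.07 with corn oil (SD, 3 livers each), a log2 difference of -0.47 ± 0.55 (SE). That difference rested on single arrays. It was -1.07 within the first scan day, without corn oil replicate 2, and -0.18 without TCEP replicate 1. Leaving out corn oil replicate 1 gave -0.28, and leaving out replicate 3 of that group gave -0.05. Its spread between arrays of 1 group, a measure the choice of genes did not use, was 0.84 log2 units (pooled SD). That was larger than in 98.0% of all kept probes, whose median was 0.18. The pooled SD includes corn oil replicate 2, so slide and scan day cannot be told apart from spread between livers.

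The upstream sequences come from RefSeq's promoter table for assembly GRCr8, which held 8 of the 10 genes (not Egr3 and Ier3), in the 250 bases before the listed start. The windows were searched on both strands for the serum response CArG box, the EGR site GCGNGGGCG and the NR4A half-site AAAGGTCA. Also searched were the cAMP response element TGACGTCA and its core TGACG, and each full element also counts as a core. A CArG box matches its pattern on both strands, though its letters can differ between them. The Egr1 window, chr18:26736828-26737077 on the plus strand, is shown because it holds both the CArG box and the cAMP core, and capitals mark the matches.
Egr1: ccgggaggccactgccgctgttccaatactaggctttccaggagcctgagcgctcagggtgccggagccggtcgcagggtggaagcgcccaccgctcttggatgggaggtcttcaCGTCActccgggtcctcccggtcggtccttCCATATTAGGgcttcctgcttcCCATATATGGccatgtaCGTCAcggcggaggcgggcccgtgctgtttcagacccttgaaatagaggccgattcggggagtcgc

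In that window the CArG box matched 2 times, at 105 to 96 and at 83 to 74 bases before the start, and the cAMP core matched 2 times, at 135 to 131 and at 66 to 62. Of the 33469 windows searched, 1.50% held a CArG box and 18.2% the cAMP core. Egr1 and Egr2 were the 2 members with a CArG box, and in both a box at 83 to 74 preceded a cAMP core at 66 to 62. These 22-base stretches lie at chr18:26736995-26737016, plus strand, for Egr1 and at chr20:21054503-21054524, minus strand, for Egr2, and capitals mark both motifs. The listed start of Egr2 lies 760 bases inside its annotated span, so its stretch lies within the gene.
Egr1 site: CCATATATGGccatgtaCGTCA
Egr2 site: CCATATATGGgcagcgaCGTCA

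Egr2, the factor best known from Schwann cells and hindbrain, was barely measured. Its 1 probe was well above background in 0 of 3 TCEP livers and in 1 of 3 corn oil livers, so no fold is given. Egr3, a factor known from muscle spindles and lymphocytes, had 3 probes of low signal. The kept one passed only through the TCEP arrays and read -4.59, -4.09 and -4.47 in TCEP livers, against -4.41, -4.99 and -4.58 in corn oil livers, with corn oil replicate 2 not well above background. The groups overlapped, and the log2 difference was 0.27 ± 0.20 (SE) and 0.11 within the first scan day. A second Egr3 probe, well above background on 2 arrays of each group, gave -0.51 ± 0.48, and the third was well above background on 0 of the 6 arrays. The Egr3 probes thus gave no shared direction.

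The NAB corepressors were lower with TCEP in each probe well above background in both groups. Nab2, whose protein binds EGR factors and blocks their activation, read 0.30, -0.04 and 0.11 in TCEP livers, against 0.56, 1.32 and 1.17 in corn oil livers. Every TCEP liver lay below every corn oil liver. The means were 0.12 ± 0.17 with TCEP and 1.02 ± 0.40 with corn oil (SD, 3 livers each), a log2 difference of -0.89 ± 0.22 (SE), or 1.86-fold lower with TCEP. The difference was -0.74 within the first scan day and between -1.12 and -0.74 with any 1 array left out. A dimmer Nab2 probe was well above background in 0 TCEP livers and 1 of 3 corn oil livers, so no fold is given for it.

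Nab1, the relative of Nab2 with the same corepressor role, had 2 kept probes that differed in size but not in direction. The brighter one read 2.17, 2.18 and 2.12 in TCEP livers, against 2.27, 2.55 and 2.50 in corn oil livers, a log2 difference of -0.29 ± 0.11 (SE), or 1.22-fold lower. Its 3 TCEP values lay close together, all below the corn oil values, and its pooled within-group SD of 0.11 was larger than in only 21.8% of kept probes. The dimmer one read -2.51, -3.89 and -3.49 in TCEP livers, against -1.74, -1.77 and -2.18 in corn oil livers. Here too the groups did not overlap, and the log2 difference was -1.40 ± 0.36, or 2.64-fold lower. Within the first scan day the differences were -0.23 and -1.34. The mean over both probes gave -0.84.

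The Nab1 window is shown because it held the EGR site 3 times, at 202 to 194, 170 to 162 and 99 to 91 bases before the listed start, which lies 95 bases inside the gene's annotated span. Only 4.29% of all windows held that motif, and besides Nab1 the only member with it was Nr4a1. The letters of the site are rich in G and C and can overlap GC boxes, and the window itself was 81.2% G and C, against a median of 51.2% over all windows. Capitals mark the first 2 EGR sites and a cAMP core in the part outside the gene, chr9:56545392-56545542 on the plus strand.
Nab1: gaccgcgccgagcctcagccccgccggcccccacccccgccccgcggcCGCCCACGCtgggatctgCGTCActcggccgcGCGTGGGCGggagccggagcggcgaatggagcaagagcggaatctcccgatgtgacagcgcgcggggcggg

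Of the NR4A receptors, Nr4a1 (Nur77), known in mice to raise glucose-producing enzymes in liver, read -1.22, -2.02 and -1.74 in TCEP livers, against -0.64, -1.31 and -1.32 in corn oil livers. The 2 lowest values were from TCEP livers and the highest was from corn oil replicate 1, but TCEP replicate 1 lay above 2 corn oil livers, so the groups overlapped. The log2 difference was -0.57 ± 0.27 (SE), or 1.48-fold lower, -0.68 within the first scan day and -0.34 without corn oil replicate 1. Its window held 4 cAMP cores and 1 EGR site; the stretch shown, chr7:134260056-134260073 on the plus strand, holds 1 core beside the EGR site, in capitals and read on the opposite strand. The listed start lies 12985 bases inside the gene's annotated span.
Nr4a1 site: CGTCAgtggCGCCCCCGC

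Nr4a2 (Nurr1), the receptor known for its part in dopamine neurons, showed no shared direction over its 3 kept probes. The brightest read 0.16, -0.14 and 0.10 in TCEP livers, against -0.04, 0.37 and -0.25 in corn oil livers, which enclosed the TCEP values. Its log2 difference was 0.01 ± 0.18 (SE), 0.19 within the first scan day and -0.12 without corn oil replicate 3. The other probes gave -0.11 ± 0.10 and 0.09 ± 0.10, and all 3 pairs of groups overlapped. The NR4A half-site was found in 0 of the 8 member windows and in 1.24% of all windows. Not all member windows lie outside their genes. The listed starts of Nr4a2 and Nab2 lie 11039 and 272 bases inside the annotated spans, so these windows lie within the genes.

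Ier2, a nuclear protein of the early growth response, read 4.09, 3.53 and 4.13 in TCEP livers, against 4.37, 4.34 and 4.51 in corn oil livers. All TCEP values lay below the corn oil values, with TCEP replicate 2 lowest. The means were 3.92 ± 0.34 with TCEP and 4.41 ± 0.09 with corn oil (SD, 3 livers each), a log2 difference of -0.49 ± 0.18 (SE), or 1.41-fold lower. It was -0.53 within the first scan day and -0.30 without TCEP replicate 2. The Ier2 window, chr19:40399123-40399372 on the plus strand, is shown because it was the only member window with the full cAMP response element, a motif in 1.59% of all windows, at 66 to 59 bases before the start, in capitals.
Ier2: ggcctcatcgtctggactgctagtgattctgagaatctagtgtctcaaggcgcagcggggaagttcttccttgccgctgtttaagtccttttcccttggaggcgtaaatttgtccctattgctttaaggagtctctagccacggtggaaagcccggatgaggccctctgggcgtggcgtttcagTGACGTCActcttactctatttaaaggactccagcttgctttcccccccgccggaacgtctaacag

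Ier3 (IEX-1), a regulator of cell survival under stress, read 0.82, 1.33 and 1.39 in TCEP livers, against 1.33, 1.53 and 1.77 in corn oil livers. The lowest value was from a TCEP liver and the 2 highest from corn oil livers, but TCEP replicate 3 lay above corn oil replicate 1, so the groups overlapped. The log2 difference was -0.37 ± 0.19 (SE), -0.38 within the first scan day, -0.25 without corn oil replicate 3 and -0.19 without TCEP replicate 1.

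Ier5, known from human cells as an activator of the heat shock factor HSF1, followed single livers more than the groups. Its brightest probe read 1.62, 1.34 and 2.58 in TCEP livers, against 1.54, 3.23 and 2.03 in corn oil livers. Corn oil replicate 2 was highest and TCEP replicate 3 second on all 3 Ier5 probes. The 2 kept probes correlated at 0.99 over the 6 arrays, and the third, well above background only on those 2 arrays, correlated with them at 0.90 and 0.92 (Pearson, 6 arrays, given as a description of probes of 1 transcript on shared arrays). The log2 difference of the brightest probe was -0.42 ± 0.51 (SE), 0.06 within the first scan day and -0.79 without TCEP replicate 3; without corn oil replicate 1 it was -0.78 and without TCEP replicate 2 -0.17. Its pooled within-group SD of 0.77, with corn oil replicate 2 of another slide and scan day included, was larger than in 97.4% of kept probes.

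**Figure D2:**
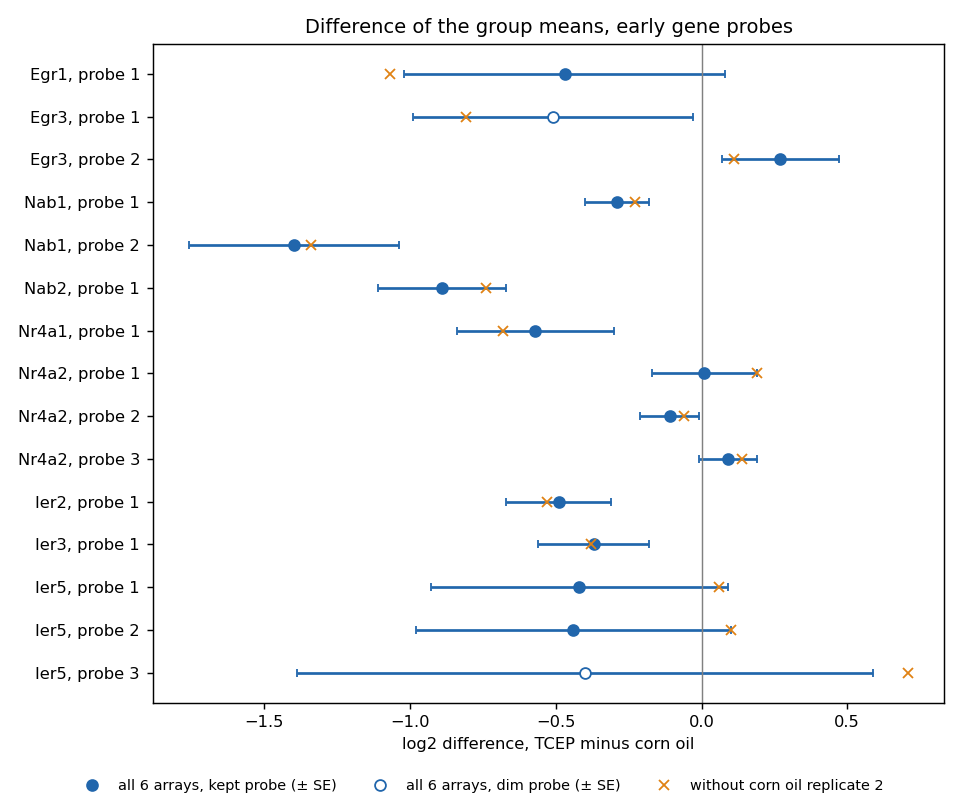
Log2 difference of the group means, TCEP minus corn oil, for the 15 member probes that were well above background on at least 1 array of each group. Filled points passed the filter, open points did not, bars are the SE from the fit over all kept probes (for open points, over all probes), and crosses are the values without corn oil replicate 2. The Nab1, Nab2, Nr4a1, Ier2 and Ier3 probes lie left of 0 with and without that array, and the Ier5 crosses lie right of 0.

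The arrays did not order the genes alike. TCEP replicate 2 gave the lowest of the 6 values in 4 of the 9 genes and corn oil replicate 2 the highest in 4, but corn oil replicate 2 was also lowest in 2, Egr1 and Egr3. TCEP replicates 1 and 3 gave the highest value of the 6 in 0 genes. Egr1 and Ier5 varied in opposite ways in corn oil replicate 2, where Egr1 was at its lowest and Ier5 at its highest. The share of probes well above background was also lowest on that array, at 57.2%; its part in the Egr1, Egr3 and Ier5 values was not tested.

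**Figure D3:**
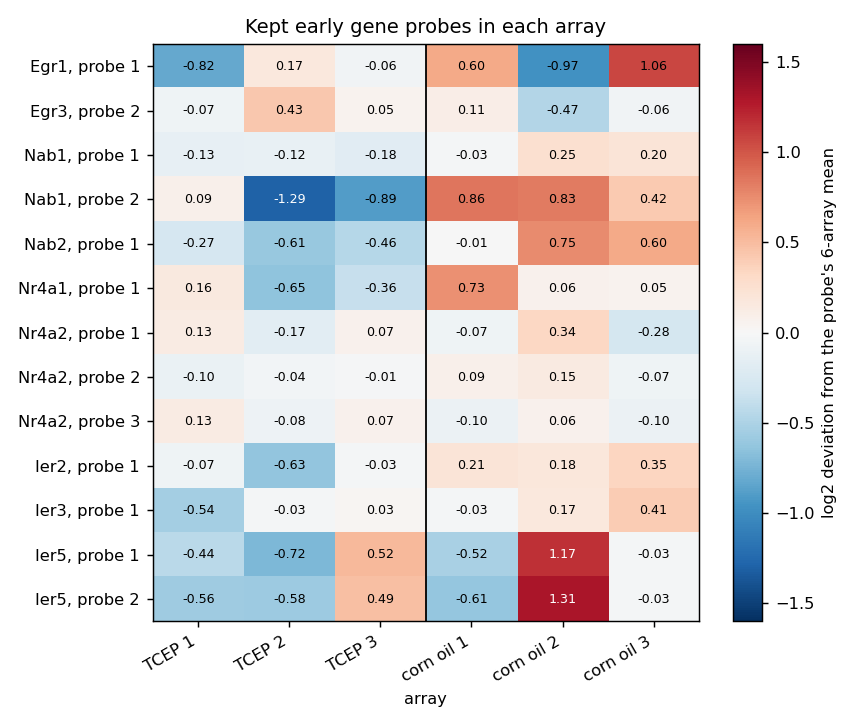
Deviation of each kept member probe (rows) from its own mean over the 6 arrays, in log2 units, with TCEP arrays left of the black line and corn oil arrays right of it. Red is above and blue below that mean. In both Nab1 rows, Nab2 and Ier2 every TCEP value lies below every corn oil value, while Egr1 and Ier5 follow single arrays. The colours of the Nab1 and Nab2 rows do not split fully by group. TCEP replicate 1 lies slightly above the mean in the dimmer Nab1 row. Corn oil replicate 1 lies slightly below it in the brighter Nab1 row and in Nab2.

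The genes whose signals ran most like that of Egr1, and the ranks of the other members, are given as a description. Over the 6 arrays, 10446 named genes measured well above background on every array were ranked by Pearson correlation with Egr1. The 5 closest were the sialomucin Cd164 at 0.988, the translation regulator Bzw1 at 0.986, the cytosolic malate dehydrogenase Mdh1 at 0.982, the kinase Csnk1g3 at 0.981 and the dynein regulator Ndel1 at 0.980, each with corn oil replicate 2 lowest and corn oil replicate 3 highest, as for Egr1. Their ranges over the arrays were small beside that of Egr1, as with Cd164 at 6.37, 6.52 and 6.54 in TCEP livers and 6.63, 6.32 and 6.71 in corn oil livers. A search over this many genes on 6 shared arrays returns high values by its nature. The nearest member was Ier3 at rank 1531, with 0.557, and Nab2 had 0.021, Ier5 -0.448 and Nr4a2 -0.916, rank 10378.

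**Figure D4:**
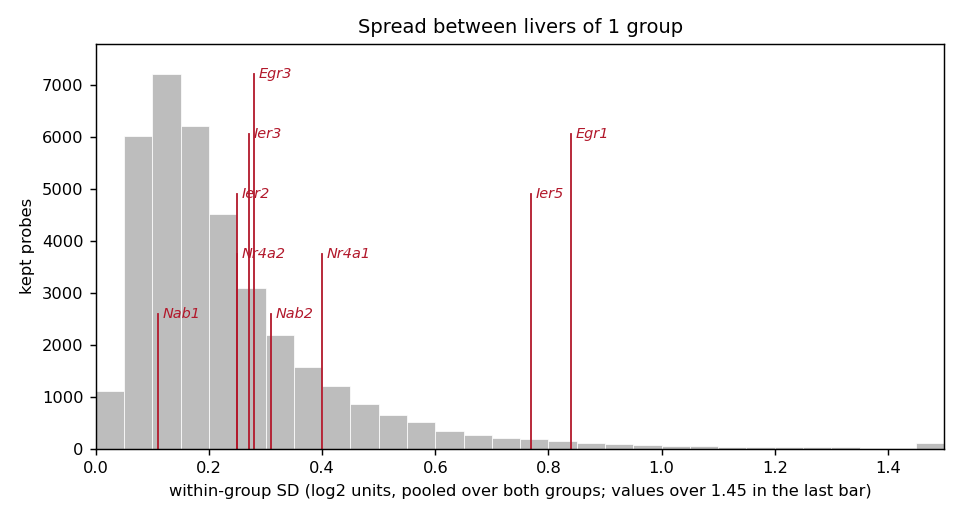
Pooled within-group SD of all 37043 kept probes (grey bars, number of probes per 0.05 log2 units) with the brightest kept probe of 9 early genes as red lines, whose heights carry no value. Egr1 and Ier5 lie in the right tail, and Nab1 lies left of the median of 0.18. The SD includes corn oil replicate 2, of another slide and scan day.

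The family relatives outside the set were little measured. The Egr4 and Nr4a3 probes were not well above background on any array. Ier5l, a relative of Ier5, read -0.27, -0.16 and -0.10 in TCEP livers, against -0.35, 0.24 and -0.11 in corn oil livers, overlapping groups with a log2 difference of -0.10 ± 0.18 (SE, fit over all probes), which was 0.05 within the first scan day. A second kept Ier5l probe, also with overlapping groups, had -0.26 ± 0.15 in the same fit.

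Most other early response genes also had a lower mean with TCEP. The AP-1 and immediate early list, written with earlier results of these data known, had 43 genes, of which 41 had a probe and 38 were kept. Of the 38, 28 had a lower mean with TCEP (73.7%, against 48.9% of all kept probes), and the median log2 difference was -0.30. In 6 genes every TCEP value lay below every corn oil value (6.89% of all kept probes) and in 0 above. Over all probes 0 passed the adjusted threshold in limma, and at an unadjusted p under 0.05 there were 7 of the 38 lower, against 4.10% of all kept probes, and 0 higher, against 4.84%. The median was -0.15 without corn oil replicate 3 and -0.18 with normexp background correction. Junb, an AP-1 subunit, read 2.68, 2.43 and 2.72 in TCEP livers, against 3.72, 3.74 and 3.93 in corn oil livers, 2 groups well apart, with a log2 difference of -1.19 ± 0.12 (SE). Btg2, an antiproliferative early gene, had -1.15 ± 0.17, also without overlap. Jun had -1.27 ± 0.52 and Fos -1.11 ± 0.67, both with overlapping groups. The Fos mean rested on corn oil replicate 1, at -1.60 against -4.11 and -3.97 in the other corn oil livers and -4.03, -4.37 and -4.59 in TCEP livers. Atf3, a stress-induced factor, had -0.69 ± 0.49, the MAP kinase phosphatase Dusp1 had -0.67 ± 0.53 and Myc had 0.49 ± 0.42, again with overlap. The 3 brightest members of the list, Errfi1, Btg1 and Zfp36l1, had -0.10 ± 0.19, -0.72 ± 0.23 and -0.21 ± 0.25.

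The upstream signalling genes were measured beside them. Of 22 kept genes for serum response factor, ternary complex factors, CREB and the MAP kinase chain, 6 had a lower and 16 a higher mean with TCEP. The lower share was 27.3%, against 48.9% of all kept probes. Their median log2 difference was 0.02, against 0.01 over all kept probes. It was 0.09 without corn oil replicate 3, 0.06 without TCEP replicate 1 and 0.08 with median centring. In 1 of them, Creb1, all TCEP values lay below the corn oil values (6.89% of all kept probes). Srf itself, which binds the CArG box, read 2.32, 2.14 and 2.26 in TCEP livers, against 2.16, 2.46 and 2.21 in corn oil livers, a difference of -0.03 ± 0.12 (SE). Its ternary complex partners Elk1, Elk3 and Elk4 had 0.19 ± 0.19, 0.10 ± 0.24 and -0.02 ± 0.10. The kinase Mapk3 had -0.05 ± 0.08, Creb1 had -0.23 ± 0.11, the growth factor receptor Egfr had 0.51 ± 0.28 and Map2k2, bright on all arrays, had 0.00 ± 0.10. Mapk14, the p38 kinase, had 0.40 ± 0.16, with all TCEP values above the corn oil values (10.1% of all kept probes). None of the 22 passed the adjusted threshold in limma, and at an unadjusted p under 0.05 there were 0 lower and 1 higher of 22, beside 4.10% and 4.84% of all kept probes.

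Genes known in other systems as EGR1 targets were examined next, and 12 of 16 kept members had a lower mean with TCEP, with a median of -0.09, which was -0.01 without corn oil replicate 2 or TCEP replicate 2, -0.18 without corn oil replicate 1, -0.03 with median centring, -0.06 with normexp and -0.14 with quantile normalization. The groups were apart in 1 lower gene, the collagen Col1a2 (-0.19 ± 0.10, SE), and 1 higher gene, the growth factor Pdgfa (0.31 ± 0.12). Those counts, 1 of 16 each, stand beside 6.89% of all kept probes below and 10.1% above, and are no result about the list. The brightest members, fibronectin Fn1, the cell cycle inhibitor Cdkn1a and Vegfa, had -0.31 ± 0.14, -0.05 ± 0.11 and -0.09 ± 0.11. The 5 genes of glucose production that NR4A receptors are known to act on in mice had a median of 0.00. Of these, Fbp1 had 0.04 ± 0.11, Pck1 -0.60 ± 0.33 and G6pc1 -0.01 ± 0.16, and all 5 had overlapping groups. In both lists 0 genes passed the adjusted threshold in limma. At an unadjusted p under 0.05 the EGR1 list had 0 lower and 1 higher of 16, beside 4.10% and 4.84% of all kept probes, and the NR4A list had 0 of 5 in either direction.

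**Figure D5:**
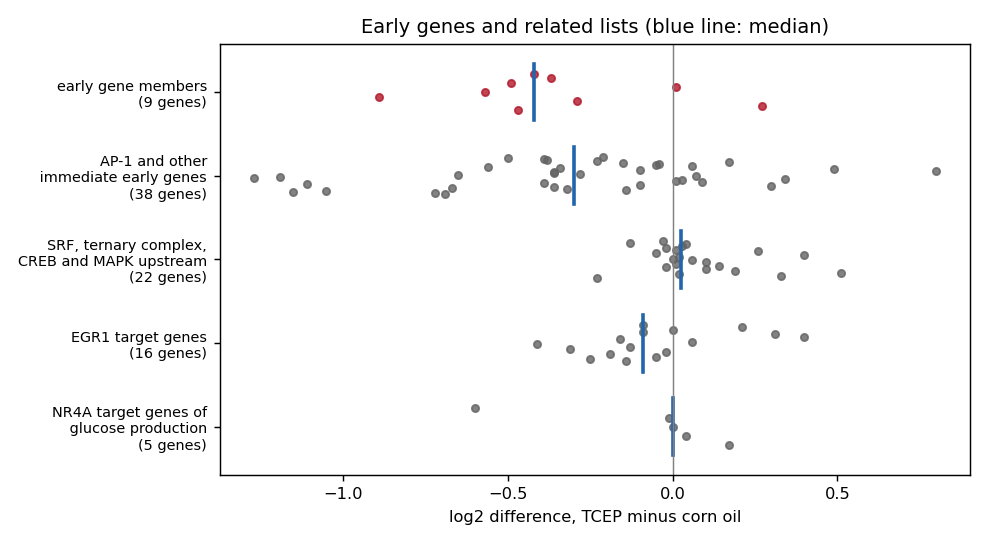
Log2 differences, TCEP minus corn oil, of 9 early genes (red) and of the genes of 4 related lists (grey), each point 1 gene by its brightest kept probe; vertical positions within a row only separate the points. Blue lines are medians: -0.42 for the early genes, -0.30, 0.02, -0.09 and 0.00 for the lists from top to bottom.

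Markers of the labelled tissue and of other cells were set beside these values. All 14 hepatocyte markers were kept, and 11 had a lower mean with TCEP (median -0.15), beside 48.9% of all kept probes. In 2 of the 14 every TCEP value lay below every corn oil value, beside 6.89% of all kept probes. At an unadjusted p under 0.05 in limma there were 0 in either direction, beside 4.10% lower and 4.84% higher. Their summed signal, in units of the 75th percentile, was 6920 to 7560 in TCEP livers and 7570 to 7870 in corn oil livers. These ranges nearly touched but did not overlap. The part of that shift in the early gene values was not tested. Macrophage markers (12 of 12 kept) summed to 166 to 200 with TCEP and 123 to 272 with corn oil, endothelial markers (7 of 7 with a probe) to 43.3 to 47.4 with TCEP, inside the corn oil range that began at 40.9, and stellate cell markers (11 of 12, without Lum) to 30.8 to 32.2 and 31.9 to 34.2. Erythroid markers (5 of 5 with a probe) summed to 226 to 332 with TCEP and 221 to 338 with corn oil, neutrophil markers (3 of 7) to 1.69 to 3.17 and 0.999 to 5.84, T and NK cell markers (9 of 10) to 3.69 to 6.22 and 4.14 to 5.14, and cholangiocyte markers (7 of 7) to 1.94 to 2.81 and 1.72 to 2.22, all overlapping as sums. Of the 7 cholangiocyte markers, 2 had all TCEP values below corn oil and 2 all above, beside 6.89% and 10.1% of all kept probes. At an unadjusted p under 0.05 in limma 2 were lower and 2 higher, beside 4.10% and 4.84%. Of the 11 stellate cell markers, 9 had a lower mean, 2 had all TCEP values below and 0 above. At that p 1 stellate and 1 erythroid marker were lower and 0 higher. B and plasma cell markers (4 of 4) summed to 2.00 to 2.68 with TCEP and 1.67 to 1.98 with corn oil, without overlap. Of those 4, 1 had a lower mean, and 1 had every TCEP value above every corn oil value, beside 10.1% of all kept probes. The part of these markers was not tested either.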

How the data were processed

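Liver RNA of 6 rats was labelled with Cy3 and hybridised to 1-colour Agilent arrays. Per the file headers, the authors read the scans with version 10.7.1.1 of Agilent Feature Extraction, listed as 10.7 by the submitters' processing notes; the deposited scanner files hold a background-subtracted intensity per spot and flags, given here the unit other. The authors' deposited value table gives each probe as a ratio of its intensity to the 75th percentile of that array, as found from the values; it was used as an alternative. Probes were named through unversioned RefSeq accessions of assembly GRCr8, which matched 27460 of 61657. Values are log2 of the processed intensity minus the array's 75th percentile. The 1319 control spots were left out, and 64 outlier-flagged spots, none of a member, were set to missing; 0 member spots were saturated.

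Groups came from the treatment label and replicates, taken as separate animals, from the titles. TCEP was compared with corn oil in limma 3.58.1 (R 4.3.3) over all 37043 kept probes, two-sided, with Benjamini-Hochberg adjustment; the fit was tested on simulated data. Precision is limited by having 3 arrays a group: the median SE of a log2 difference was 0.14. The members and lists were chosen with earlier results of these data known. Named were all members, the family relatives, a fixed set of early and upstream genes, the 3 brightest genes of each list and the 5 genes most like Egr1; a few genes of the upstream list are not reported here. Pdgfa and Col1a2 were picked for groups that did not overlap. Alternatives were quantile normalization, median centring, normexp with an offset of 50 on median intensities (no mean intensity is in the files used here), the deposited table, other filters, 1 probe or the mean per gene, other variance models, slide and replicate blocks, and leaving out each array.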

Additional observations from a re-analysis of the deposited data

How the results depend on the processing

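With 1 array left out, the median log2 difference of the members ran from -0.53 (without TCEP replicate 3 or corn oil replicate 2) to -0.25 (without corn oil replicate 3), and probes past the adjusted threshold numbered 0 to 1; the 1, without corn oil replicate 1, was of Abcc3, no member, named after its value was seen (log2 difference 3.46, limma adjusted p = 0.040). The other 12 alternatives gave 0 probes and 0 genes of the related lists. Replicate numbers did not pair the arrays: same-numbered arrays deviated from their group means with correlations of -0.04, -0.17 and -0.02, and the replicate block gave 0 probes, with 2520 at an unadjusted p under 0.05, and a member median of -0.42. Centring on the median gave 884 lower and 2818 higher probes at that p, against 1520 and 1792. That centring moved the median log2 difference over all kept probes from 0.01 to 0.06. Without TCEP replicate 2 or 3 the higher probes numbered 1111 and 1110, and the cause of that was not tested. Egr1, Ier2, Ier3, Nab1, Nab2 and Nr4a1 were lower with TCEP in all 18 alternatives, a count that was partly fixed in advance. The groups of Nab1, Nab2 and Ier2 do not overlap, so that leaving out 1 array cannot turn them. Several alternatives reuse the same probe values and could not turn Egr1 either. The trended variance model, replicate block, other filters, deposited table and 1 probe per gene all left it at -0.47. With 1 array left out, Egr1 ran from -1.07 to -0.05. Ier5 turned in 1 alternative, Nr4a2 in 4 and Egr3 in 3 of 17, all 3 of which used another Egr3 probe than the main one; the filter on all 6 arrays gave no Egr3 value. Slide as a random block had a correlation of -0.06. Signal over background limits Egr2, Egr3, Egr4 and Nr4a3.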
